A study of Mus musculus with 6 samples.

Results

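The 40 genes described here are transcripts of DNA replication and cell division, taken by name from a table of read counts for mouse kidney. The genes were listed by symbol, all 40 were found among the 32285 gene rows, and all 40 passed the filter on low counts that 15955 genes passed. By role they were split into 4 genes that control entry into S phase, 11 genes of S phase itself and 25 genes of G2 and mitosis. The samples were kidneys of female mice aged 100 weeks, measured by RNA-seq in 6 libraries, and every mouse of both groups had mutated TrnE, which encodes the mitochondrial tRNA for glutamate, in some of its mitochondrial DNA. The load of a mouse is given in the labels as a percent. Controls 1 to 3 had a load of 10%, 5% and 15%, and high-load 1 to 3 a load of 75%, 75% and 80%, so that the controls are low-load mice and not mice free of the mutation. The labels name no strain.

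A cell that divides first passes the G1/S boundary, where cyclins of the D and E type activate their kinases and release E2F transcription factors from the retinoblastoma protein. E2F then drives the genes that copy DNA, such as the MCM helicase, the clamp PCNA and the enzymes that make nucleotides. Genes of G2 and mitosis follow later under B-MYB and FOXM1 and are held down in resting cells by the DREAM complex, which binds a promoter element called the cell cycle genes homology region (CHR). In the adult kidney most tubule cells rest, and they can re-enter the cycle after injury. Some of the genes, MCM subunits and Pcna among them, also have transcripts in resting cells and in DNA repair, while Mki67 and Top2a are used as marks of cycling cells.

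Promoters of members are shown because S phase and mitosis genes are known to be read through different elements. They are from RefSeq on GRCm38.p6, the assembly that mm10 is made from, and run from 250 bases before to 50 bases after the start site, 5′ to 3′ on the strand of the gene. Capitals mark an E2F element (TTTGGCGC, TTTCCCGC, TTTGCCGC or TTTCGCGC), a CHR (TTTGAA or TTCGAA) or a CCAAT box (CCAAT), searched on both strands, and matches can overlap each other. Shown are the 3 S phase and the 3 mitosis genes with the smallest unadjusted p that have an entry in the table. Rrm2 encodes the small subunit of ribonucleotide reductase (ENSMUSG00000020649, chr12:24708004-24708303, plus strand), and Mcm5 (ENSMUSG00000005410, chr8:75109259-75109558, plus strand) and Mcm7 (ENSMUSG00000029730, chr5:138171834-138172133, minus strand) encode subunits of the replicative helicase.
Rrm2: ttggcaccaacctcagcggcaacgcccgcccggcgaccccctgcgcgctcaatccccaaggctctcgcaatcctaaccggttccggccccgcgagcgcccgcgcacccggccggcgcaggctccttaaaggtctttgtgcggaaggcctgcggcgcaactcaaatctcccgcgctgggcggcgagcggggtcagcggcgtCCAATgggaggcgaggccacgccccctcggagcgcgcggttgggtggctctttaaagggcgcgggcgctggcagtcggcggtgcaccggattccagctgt
Mcm5: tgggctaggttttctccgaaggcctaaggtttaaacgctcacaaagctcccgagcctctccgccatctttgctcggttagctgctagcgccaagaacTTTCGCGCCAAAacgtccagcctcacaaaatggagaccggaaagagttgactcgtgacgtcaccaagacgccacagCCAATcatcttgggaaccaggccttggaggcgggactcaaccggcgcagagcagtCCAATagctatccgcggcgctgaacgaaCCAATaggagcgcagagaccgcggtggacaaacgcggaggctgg
Mcm7: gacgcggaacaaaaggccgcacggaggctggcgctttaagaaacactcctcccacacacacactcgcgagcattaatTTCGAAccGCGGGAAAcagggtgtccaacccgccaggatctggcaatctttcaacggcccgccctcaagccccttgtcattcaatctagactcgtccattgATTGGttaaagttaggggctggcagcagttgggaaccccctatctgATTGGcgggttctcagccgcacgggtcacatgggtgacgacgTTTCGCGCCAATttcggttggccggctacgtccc

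Bub1b encodes the spindle checkpoint kinase BUBR1 (ENSMUSG00000040084, chr2:118597961-118598260, plus strand), Top2a the DNA topoisomerase that untangles chromosomes (ENSMUSG00000020914, chr11:99024140-99024439, minus strand) and Mki67 the Ki-67 protein that coats them (ENSMUSG00000031004, chr7:135716330-135716629, minus strand).
Bub1b: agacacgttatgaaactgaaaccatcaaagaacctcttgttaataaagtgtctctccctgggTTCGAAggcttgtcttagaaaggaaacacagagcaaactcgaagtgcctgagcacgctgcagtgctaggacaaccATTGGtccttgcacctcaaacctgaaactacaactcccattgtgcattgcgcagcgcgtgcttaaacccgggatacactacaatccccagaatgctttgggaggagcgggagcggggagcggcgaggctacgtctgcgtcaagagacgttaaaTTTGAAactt
Top2a: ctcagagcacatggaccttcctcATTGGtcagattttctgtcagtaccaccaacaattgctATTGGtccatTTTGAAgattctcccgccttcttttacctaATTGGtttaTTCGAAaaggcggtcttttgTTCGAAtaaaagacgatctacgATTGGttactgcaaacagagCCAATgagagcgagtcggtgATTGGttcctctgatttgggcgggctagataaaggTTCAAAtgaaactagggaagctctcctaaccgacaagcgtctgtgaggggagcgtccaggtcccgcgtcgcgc
Mki67: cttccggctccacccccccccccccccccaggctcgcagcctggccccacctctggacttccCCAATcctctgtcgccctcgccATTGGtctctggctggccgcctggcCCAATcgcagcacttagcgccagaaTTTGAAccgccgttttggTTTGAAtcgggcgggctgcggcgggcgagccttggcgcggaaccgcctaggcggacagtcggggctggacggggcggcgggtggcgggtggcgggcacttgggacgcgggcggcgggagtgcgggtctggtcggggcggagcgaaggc

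Mcm5 held 2 E2F matches that overlap, from 153 to 142 bases before the start, and Mcm7 held 2 and also a CHR match, while Rrm2 held a CCAAT box alone. The other Mcm7 start in the table held a CCAAT box alone. All 3 mitosis promoters held at least 2 CHR matches and at least 1 CCAAT box, and none held an E2F match. Top2a held 4 CHR and 6 CCAAT matches. Over all members, 31 of 40 had a promoter in the table. A CHR was found in 15 of 19 G2 and mitosis genes (78.9%) and in 2 of 10 S phase genes (20%), beside 16.8% of the 12069 genes tested that had a promoter. An E2F element was found in 4 of 10 S phase genes (40%), which were Mcm3, Mcm5, Mcm6 and Mcm7, in 1 of 19 G2 and mitosis genes (5.26%), Cdk1, and in 4.23% of the genes tested. A CCAAT box was found in 8 of 10, 17 of 19 and 42.2%. Over all 27025 genes with a promoter in the table, the shares were 2.6% for E2F, 21.7% for CHR and 41.1% for CCAAT. Ccne1 and E2f1, the G1/S members with a promoter, held none of the 3. These matches describe letters and do not show binding. Whether they go with the fold changes was not tested.

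**Figure D1:**
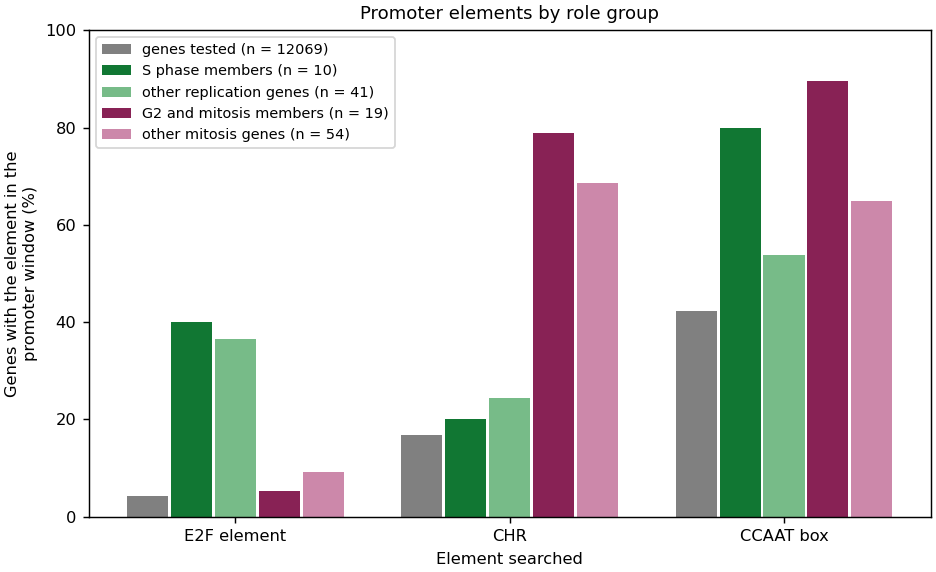
Share of genes (vertical axis, percent) whose promoter window holds each of the 3 elements (horizontal axis), for S phase and G2 and mitosis members, for other genes of both processes and for all genes tested with a promoter. CHR letters were in 78.9% of the G2 and mitosis members and 16.8% of genes tested, and E2F letters in 40% of the S phase members and 4.23% of genes tested.

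Total counts per library were 17449270 to 18865997. A member had between 6 and 4217 counts in a library, and 30 of 40 had a control mean under 10 CPM, so counting error alone is large for many of them. Values below are CPM (the usual scaling of counts to library size, here with TMM factors), with mean ± SD over n = 3 kidneys per group. Each fold change divides high load by control. Exons of 15 of the 40 genes overlap an exon of another gene, and the labels do not say whether counting used strand. Of the genes named below these include Ccna2 (with Exosc9), Ccnd1 (with LTO1), Ccne2 (with Ints8), Cdc20 (with Elovl1), Foxm1 (with Tex52), Kif20a (with Cdc23), Mcm7 (with Ap4m1 and Cops6), Nusap1 (with Oip5), Prc1 (with Rccd1), Tk1 (with Afmid) and Ube2c (with Tnnc2). Ccnb1, Pcna, Stmn1 and Tyms have copies named after them in the GENCODE annotation. The count table held 0 rows for such copies, and how reads that match both were counted is not known here. As a check of the tissue, all 8 proximal tubule markers were present in every library. The labels give each library its own animal code but do not state separate animals, and p-values measure the spread between these samples.

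The question put to the genes was whether kidneys with a high load had more cell cycle mRNA than kidneys with a low load, and whether S phase and mitosis genes differed in the same measure. In high-load kidneys, the median fold change of the G2 and mitosis transcripts was 2.01, with Mki67, Top2a, Foxm1 and Cdk1 above that median. S phase transcripts stood closer to the controls, with Rrm2, Mcm5 and Mcm3 farthest above them and Tyms, Tk1 and Pcna near them. Of the G1/S genes, Ccne1 was well above the controls, and Ccnd1, the most abundant member, was not. No single member passed the threshold of an adjusted p under 0.05 over all genes.

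Of 40 members, 38 had a fold change above 1, beside 50.9% of the 15955 genes tested. The median log2 fold change of the members was 0.78, beside 0.0067 for all genes tested. By edgeR's quasi-likelihood test with Benjamini-Hochberg adjustment 0 of 40 were called higher and 0 lower, where the background was 0.0188% and 0%. At an unadjusted p under 0.05, 25 members were higher (62.5%, background 14%) and 0 lower (background 10.2%). All 3 high-load kidneys lay above all 3 controls for 23 members (57.5%, background 17.1%), and the reverse held for 0 members (background 15.8%). Below an adjusted p of 0.1 were 2 members, Bub1b (0.0981) and Rrm2 (0.0998), beside 2.59% of genes. DESeq2 gave 13 members higher (32.5%, background 4.51%) and 0 lower (background 2.62%) at an adjusted p under 0.05. Here and below, the DESeq2 background is over 23811 genes and not the 15955 that passed the filter. It includes genes with low counts, which can lower that share. By limma-voom 0 of 40 were called, or 28 at an unadjusted p under 0.05. Leaving out control 2 gave 13 members at that unadjusted p by edgeR, and leaving out control 3 or high-load 3 gave 16. Without high-load 2 the number of members whose groups did not overlap was 35. Leaving out a kidney can raise this count but hardly lower it, and the share over all genes without high-load 2 was not counted. The kidney holds many cell types, and more cycling cells and more of these mRNAs per cell cannot be told apart in whole tissue.

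**Figure D2:**
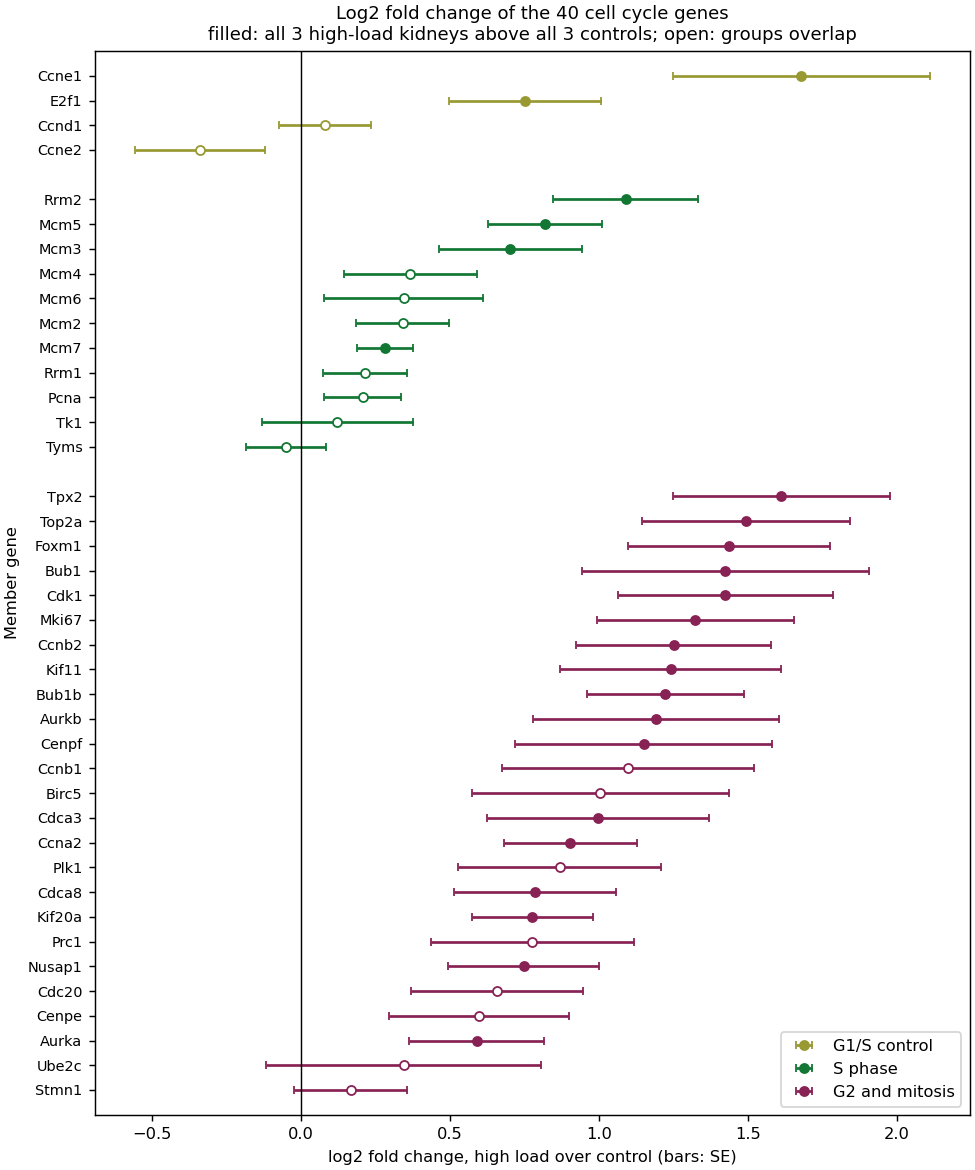
Log2 fold change of each of the 40 members, high load over control (horizontal axis), with its standard error as a bar, by role and sorted within it (vertical axis). All 25 G2 and mitosis genes lie above 0, and filled points mark the 23 genes whose high-load kidneys were all above the controls.

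Among genes that decide on entry into S phase, the values differed from gene to gene. Of the 4, 2 were higher at an unadjusted p under 0.05, or 1 without control 2, control 3 or high-load 3, and the median log2 fold change was 0.42. Ccne1 encodes cyclin E1, which activates CDK2 at the G1/S boundary. It was at 1.39, 0.668 and 0.817 CPM in controls 1 to 3, against 4.68, 2.28 and 2.28 CPM in high-load 1 to 3. High-load 1 was highest, all 3 lay above the controls, and the log2 fold change was 1.68 with SE 0.43 (edgeR adjusted p 0.115; DESeq2 adjusted p 0.0147). Without high-load 1 the log2 fold change of Ccne1 was 1.24. E2f1, the transcription factor that switches on replication genes, was at 3.49, 2.31 and 2.89 CPM in the controls against 4.92, 3.91 and 5.85 CPM at high load. Its groups did not overlap, with a log2 fold change of 0.75, SE 0.25 and an adjusted p of 0.155.

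Cyclin E2 did not share the direction of cyclin E1. Ccne2 was at 4.71, 4.44 and 3.81 CPM in the controls against 3.92, 3.53 and 2.78 CPM at high load. High-load 1 was inside the control range and the other 2 were below it, with a log2 fold change of -0.34, SE 0.22 and an adjusted p of 0.372. Ccnd1 encodes cyclin D1, the sensor of growth signals. At 148, 189 and 173 CPM in controls, against 199, 147 and 193 CPM in high-load kidneys its groups overlapped widely, and the log2 fold change was 0.08 with SE 0.16 (adjusted p 0.780), or -0.01 without control 1. Per kilobase of exon (all annotated exons of a gene merged), Ccnd1 had a level of 36.1 ± 4.37 CPM in controls and E2f1 a level of 0.919 ± 0.188 CPM.

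The S phase group had a median log2 fold change of 0.34 over 11 genes, with 10 above 0. Unadjusted p was under 0.05 for 4 of them (36.4%), or for 2 without control 2 or high-load 1. The groups did not overlap for the same number, 4. Rrm2, which limits the supply of deoxynucleotides, stood farthest apart. It was at 6.43, 4.37 and 5.61 CPM in controls 1 to 3, against 12.6, 8.52 and 13.9 CPM in high-load 1 to 3. Every high-load kidney was above every control, with high-load 2 the lowest of the 3. The fold change was 2.13, the log2 fold change 1.09 with SE 0.24 (adjusted p 0.0998, or 0.0360 without high-load 2). Without high-load 2, 544 of all 16283 genes tested were called higher. Its partner Rrm1, the large subunit of the same enzyme, was at 21.7 ± 3.04 and 25.2 ± 3.02 CPM, with groups that overlapped and a log2 fold change of 0.21. Per kilobase of exon, Rrm1 and Rrm2 were at 1.97 ± 0.276 and 1.98 ± 0.374 CPM in controls. In high-load kidneys the values were 2.28 ± 0.274 and 4.21 ± 1.01 CPM. They divide by all annotated exons of a gene merged, 11012 bp for Rrm1 and 2771 bp for Rrm2. The transcripts present can be shorter, so these values do not show that Rrm1 and Rrm2 had equal levels.

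The 6 subunits of the MCM helicase, which form a single ring, did not show the same size of difference. Mcm5 was at 7.21, 6.62 and 7.35 CPM in the controls against 15.6, 10.2 and 11.6 CPM at high load, and its log2 fold change was 0.82 with SE 0.19 (adjusted p 0.103; DESeq2 adjusted p 0.00995). The controls were close together and all 3 high-load kidneys lay above them. Mcm3 was at 9.43, 6.20 and 9.04 CPM in the controls against 16.97, 10.6 and 12.6 CPM at high load (log2 fold change 0.70, SE 0.24, adjusted p 0.157). Mcm7 was at 22.9, 22.5 and 24.4 CPM, against 30.7, 26.4 and 27.7 CPM. For Mcm3 and Mcm7 too the groups did not overlap, but the fold of Mcm7 was 1.22 (log2 fold change 0.28, SE 0.09, adjusted p 0.151).

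For the remaining 3 subunits the groups overlapped. Mcm2 was at 15.2, 14.8 and 14.7 CPM in the controls against 19.99, 14.9 and 21.8 CPM at high load, where high-load 2 was within the control range (log2 fold change 0.34, SE 0.16, adjusted p 0.231). Mcm4 was at 12.2 ± 3.08 and 15.7 ± 2.86 CPM and Mcm6 at 31.7 ± 11.6 and 40.3 ± 1.59 CPM. Control 2 was low for Mcm6, at 18.6 CPM beside 35.8 and 40.6 CPM in controls 1 and 3. Per kilobase of merged exon the control order of levels was Mcm6 (6.79 ± 2.48 CPM), Mcm7 (5.25 ± 0.224), Mcm4 (3.40 ± 0.858), Mcm3 (2.19 ± 0.470), Mcm2 (2.14 ± 0.0367) and Mcm5 (1.77 ± 0.0971). The first 2 differed by less than the SD of Mcm6, and Mcm3 and Mcm2 by less than the SD of Mcm3.

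Tyms, Tk1 and Pcna lay near the control level. Tyms, thymidylate synthase, was at 19.5, 17.7 and 15.1 CPM in the controls against 15.2, 17.4 and 17.9 CPM at high load. Its groups overlapped fully and its log2 fold change was -0.05 with SE 0.13 (adjusted p 0.848), with a change of sign to 0.07 when library totals replaced TMM scaling. Tk1, thymidine kinase of the salvage route, was at 13.5 ± 3.73 and 14.7 ± 3.28 CPM. Pcna, the sliding clamp of the DNA polymerases, was at 53.1 ± 2.51 and 61.3 ± 10.3 CPM. Neither passed the test and both had overlapping groups, with log2 fold changes of 0.12 and 0.21.

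**Figure D3:**
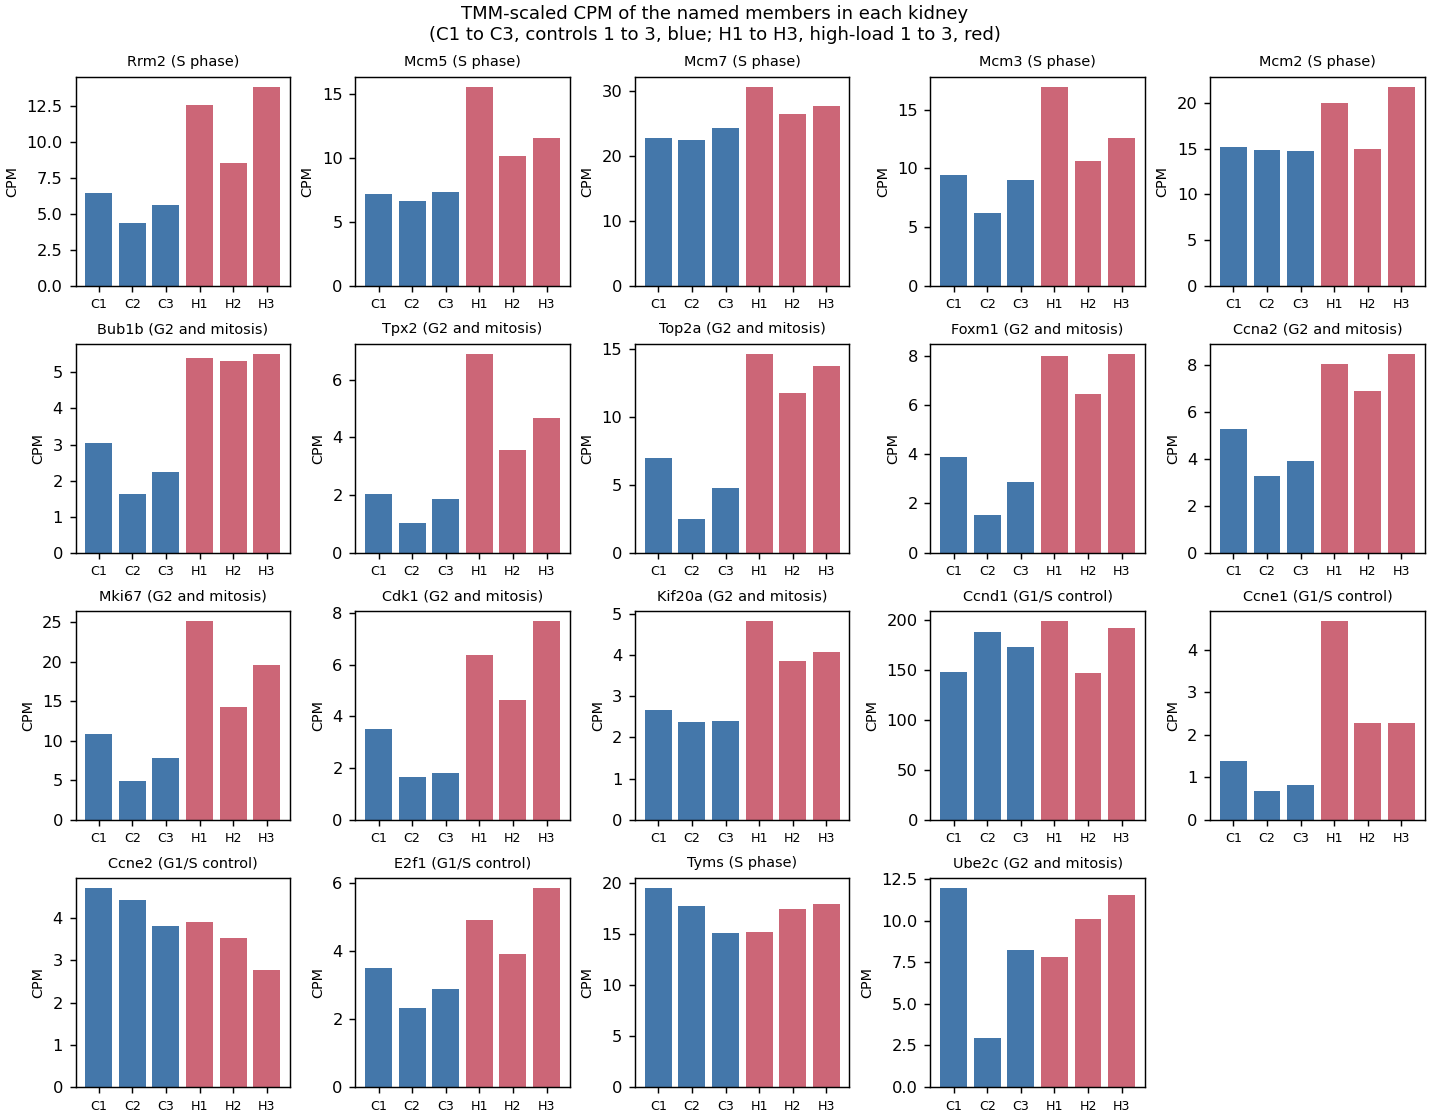
CPM of the 19 named members (vertical axes, each starting at 0) in controls 1 to 3 (blue) and high-load 1 to 3 (red), 1 bar per kidney. Rrm2, Mcm5, Top2a and Mki67 are higher in every red bar than in any blue bar, while Ccnd1, Tyms and Ube2c overlap.

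Genes of G2 and mitosis had the largest median of the 3 roles. All 25 had a fold change above 1, the median log2 fold change was 1.00 (a fold of 2.01), and the range was 0.17 for Stmn1 to 1.61 for Tpx2. Unadjusted p was under 0.05 for 19 of 25 (76%), or 10 without control 2 and 11 without control 3 or high-load 3. The groups did not overlap for 17 (68%). DESeq2 called 10 of them, which were Mki67, Top2a, Ccna2, Ccnb2, Cdk1, Bub1b, Tpx2, Kif11, Kif20a and Foxm1. The smallest edgeR adjusted p was 0.0981.

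Spindle genes had the smallest p (Bub1b) and the largest fold change (Tpx2) of the group. Bub1b was at 3.05, 1.64 and 2.23 CPM in controls 1 to 3, against 5.39, 5.32 and 5.51 CPM in high-load 1 to 3, and its log2 fold change was 1.22 with SE 0.26. The 3 high-load kidneys were nearly level and above every control. Tpx2, which loads Aurora A on spindle microtubules, was at 2.05, 1.03 and 1.85 CPM, against 6.90, 3.58 and 4.68 CPM. Its log2 fold change was 1.61 with SE 0.36 (adjusted p 0.101, or 0.0497 without high-load 2, where 544 of 16283 genes were called higher). Kif20a, a kinesin of cytokinesis, was at 2.66, 2.37 and 2.40 CPM, against 4.82, 3.85 and 4.06 CPM, and its log2 fold change was 0.78 with SE 0.20. Its controls were the closest together of these 3 genes and its fold the smallest.

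The other microtubule and kinetochore genes had the same direction. Kif11, the motor that pushes spindle poles apart, had a level of 2.64 ± 1.22 CPM in controls, against 6.25 ± 1.38 CPM in high-load kidneys. Bub1, the partner of Bub1b in the checkpoint, had the fewest counts of any member, with 0.765 ± 0.466 and 2.08 ± 0.664 CPM and as few as 6 counts in control 2. Nusap1, a microtubule bundling protein, was at 3.63 ± 0.519 and 6.11 ± 1.61 CPM, and its groups did not overlap. The kinetochore genes Cenpf (1.61 ± 0.810 and 3.59 ± 1.28 CPM) and Cenpe (1.91 ± 0.512 and 2.89 ± 0.667 CPM) differed from each other in overlap: high-load 2 lay within the controls for Cenpe and no high-load kidney did for Cenpf. Prc1, which bundles the central spindle, was at 3.44 ± 1.32 and 5.89 ± 1.55 CPM with overlapping groups.

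Kinases and cyclins of mitosis followed. Cdk1, the mitotic kinase, was at 3.49, 1.64 and 1.80 CPM in the controls against 6.38, 4.61 and 7.68 CPM at high load, and its log2 fold change was 1.42 with SE 0.36 (adjusted p 0.114; DESeq2 adjusted p 0.00688). Ccna2, its S and G2 phase cyclin, was at 5.27, 3.28 and 3.92 CPM, against 8.03, 6.89 and 8.46 CPM, and its log2 fold change was 0.90 with SE 0.22. Neither gene had a high-load kidney within the control range. The B cyclins, which drive entry into mitosis, had levels of 2.19 ± 0.810 and 5.22 ± 0.877 CPM for Ccnb2 and of 1.68 ± 0.932 and 3.61 ± 0.827 CPM for Ccnb1. Ccnb1 had overlapping groups, with high-load 2 at 2.66 CPM below control 1 at 2.72 CPM.

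Aurora kinases and their partners were also above 1 in fold change. Aurka, the kinase of the spindle poles, was at 2.70 ± 0.353 and 4.08 ± 0.713 CPM, and Aurkb, the kinase of the chromosomal passenger complex, at 1.78 ± 1.05 and 4.08 ± 0.666 CPM. Of the other subunits of that complex, Cdca8 (borealin) was at 2.71 ± 0.544 and 4.68 ± 1.10 CPM without overlap, and Birc5 (survivin) at 2.23 ± 1.21 and 4.48 ± 1.37 CPM with overlap. Plk1, a kinase of mitotic entry, was at 2.96 ± 1.18 and 5.42 ± 1.21 CPM, and high-load 2 lay below control 1. Cdca3, a trigger of mitotic entry, was at 3.55 ± 1.82 and 7.09 ± 1.23 CPM.

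Genes often read as marks of cycling cells had groups that stood apart. Mki67 was at 10.9, 4.86 and 7.79 CPM in the controls against 25.1, 14.3 and 19.5 CPM at high load, and its log2 fold change was 1.32 with SE 0.33 (adjusted p 0.114; DESeq2 adjusted p 0.00407). Top2a was at 6.99, 2.49 and 4.74 CPM, against 14.7, 11.8 and 13.8 CPM, and its log2 fold change was 1.49 with SE 0.35 (adjusted p 0.105; DESeq2 adjusted p 0.00169). Both had control 2 as the lowest kidney and control 1 as the highest control, and no overlap. Foxm1, the transcription factor of G2 and mitosis genes, was at 3.88, 1.52 and 2.89 CPM, against 7.99, 6.46 and 8.07 CPM (log2 fold change 1.44, SE 0.34, adjusted p 0.105).

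Of the G2 and mitosis members, Stmn1 and Ube2c had the smallest fold changes. Ube2c, the ubiquitin-conjugating enzyme of the anaphase-promoting complex, was at 12.0, 2.98 and 8.23 CPM in the controls against 7.85, 10.1 and 11.6 CPM at high load. Control 1 was above all 3 high-load kidneys and control 2 far below, and the log2 fold change was 0.34 with SE 0.46 (adjusted p 0.675), or -0.04 without control 2. Cdc20, the activator of the same complex, was at 3.49 ± 1.15 and 5.51 ± 0.861 CPM with overlapping groups. Its log2 fold change of 0.66 was above those of Aurka (0.59) and Cenpe (0.60). Stmn1, a tubulin-binding protein that resting cells also express, was at 30.6 ± 5.13 and 34.4 ± 7.55 CPM.

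Set side by side, the G2 and mitosis median lay 0.66 above the S phase median on the log2 scale. The difference was 1.12 without control 1, and 0.55 to 0.85 without any other 1 of the kidneys. It carries no test, since it is a score over chosen genes. To show it by kidney, each group was scored as the mean over its genes of log2(CPM + 0.5) minus the control mean. G2 and mitosis scores were, in the order of the controls, 0.45, -0.42 and -0.04, against 1.03, 0.65 and 1.07 at high load. S phase scores were 0.15, -0.13 and -0.02 and 0.56, 0.18 and 0.43. Neither score overlapped between the groups, but for S phase control 1 and high-load 2 were 0.03 apart. The mitosis score minus the S phase score was 0.30, -0.28 and -0.02 in controls and 0.47, 0.47 and 0.64 in high-load kidneys, again without overlap.

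**Figure D4:**
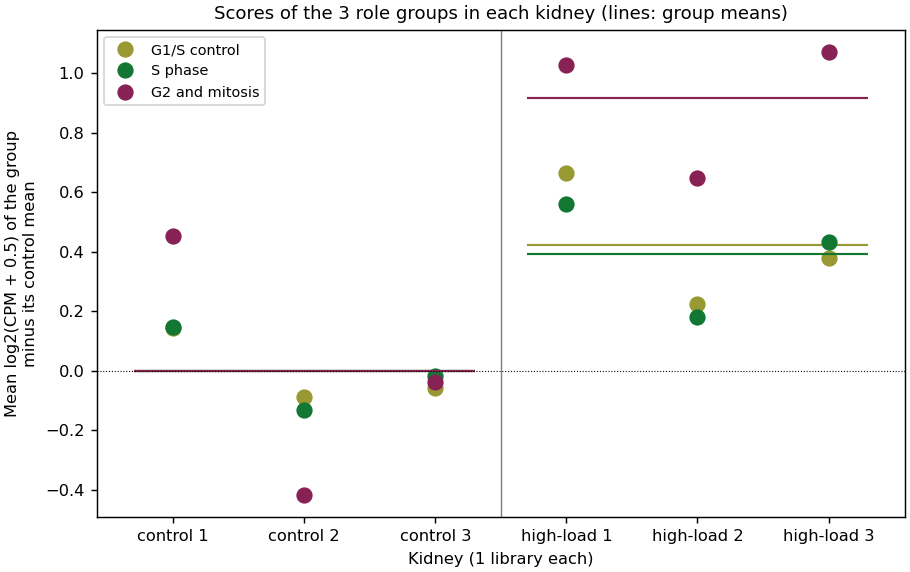
Score of each role group (vertical axis, mean log2(CPM + 0.5) minus its control mean) in each of the 6 kidneys (horizontal axis), with group means as lines. G2 and mitosis scores reach 0.65 to 1.07 in high-load kidneys and spread from -0.42 to 0.45 in controls, while S phase scores stay between -0.13 and 0.56.

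The members varied together within a group. Control 1 was the highest control for 33 of 40 members and control 2 the lowest for 31, and among high-load kidneys high-load 2 was the lowest for 35. Over all 6 kidneys the highest was high-load 1 for 20 members, high-load 3 for 17 and control 1 for 3. Summed over the 25 G2 and mitosis genes, the level was 136, 72.9 and 103 CPM in controls, against 196, 151 and 206 CPM in high-load kidneys, without overlap. For the 11 S phase genes the sum was 225.4, 192 and 208 CPM and 288, 225.1 and 263 CPM, where high-load 2 was just below control 1. Within the controls the score did not follow the load: control 3, at 15%, had a G2 and mitosis score between those of control 1, at 10%, and control 2, at 5%.

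Genes of the same processes outside the 40 had medians near those of the members. Of 51 other replication genes, 39 had a fold change above 1 (76.5%, background 50.9%) and 12 below. The median log2 fold change was 0.21. None was called in either direction by edgeR. At an unadjusted p under 0.05, 13 were higher (25.5%, background 14%), or 7 without control 3, and 1 lower (background 10.2%). DESeq2 called 6 higher (11.8%, background 4.51%) and 0 lower (background 2.62%). Uhrf1, which takes part in the copying of DNA methylation behind the fork, was at 5.58 ± 1.15 and 17.1 ± 5.94 CPM (log2 fold change 1.61, SE 0.31, adjusted p 0.0946). Ung, which removes uracil from DNA, was at 2.61 ± 0.357 and 6.10 ± 1.71 CPM, and Pole, the catalytic subunit of a replicative polymerase, at 2.24 ± 0.194 and 4.69 ± 1.14 CPM. In these 3 genes every high-load kidney was above every control.

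Of 62 other mitosis genes, 58 had a fold change above 1 (93.5%, background 50.9%) and the median log2 fold change was 0.97. None was called by edgeR. At an unadjusted p under 0.05, 40 were higher (64.5%, background 14%), or 25 without control 3, and 0 lower (background 10.2%). DESeq2 called 21 higher (33.9%, background 4.51%) and 0 lower (background 2.62%). Ccnf, the cyclin F of a ubiquitin ligase, was at 1.08 ± 0.148 and 2.81 ± 0.225 CPM (log2 fold change 1.38, SE 0.24, adjusted p 0.0936). Incenp, the scaffold of the chromosomal passenger complex, was at 6.24 ± 0.211 and 11.2 ± 1.66 CPM, and Troap, a spindle protein, at 0.566 ± 0.134 and 1.70 ± 0.0871 CPM. All 3 had groups that did not overlap.

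**Figure D5:**
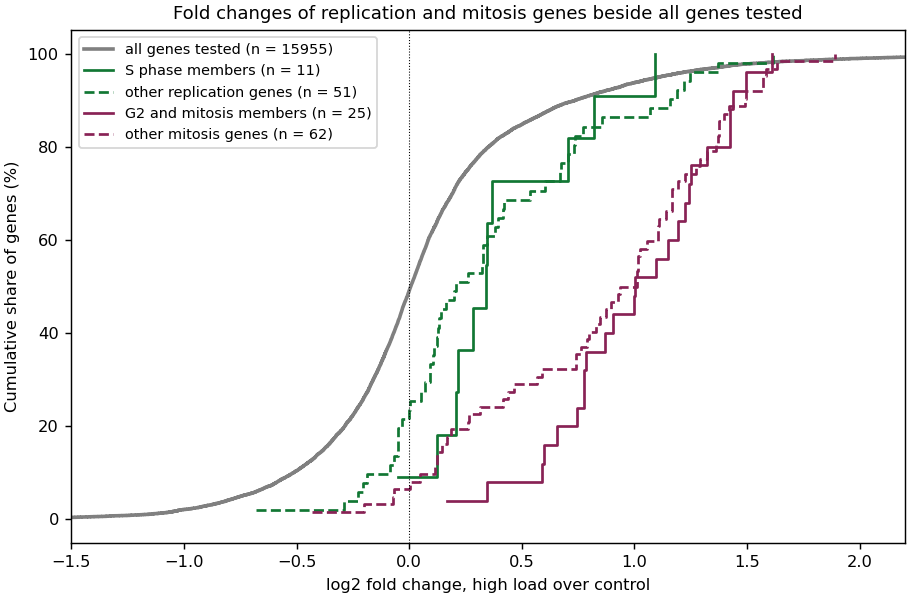
Cumulative share of genes (vertical axis, percent) by log2 fold change, high load over control (horizontal axis), for members (solid) and other genes of the same process (dashed), and for all 15955 genes tested (grey). The mitosis curves lie to the right of the replication curves, with medians of 1.00 and 0.97 against 0.34 and 0.21.

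Regulators of the cycle were mixed. Of 32 other cyclins, kinases, E2F, RB and DREAM genes, 23 had a fold change above 1 (71.9%, background 50.9%), with a median log2 fold change of 0.17. None was called by edgeR. DESeq2 called 6 higher (18.8%, background 4.51%) and 1 lower (background 2.62%). At an unadjusted p under 0.05, 11 were higher (34.4%, background 14%) and 2 lower (background 10.2%). As a share of the 32, the lower count was under that of all genes. The higher count was 7 without control 3, high-load 1 or high-load 3. The lower genes were Rbl2 and, named after its value was seen, Lin52, a subunit of DREAM, at 20.7 ± 2.85 and 16.4 ± 1.70 CPM with overlapping groups. The lower count was 1 without control 2 or high-load 1. Rbl2 encodes p130, the pocket protein that holds the DREAM complex together in resting cells. It was at 59.9, 62.7 and 56.8 CPM in the controls against 42.4, 46.6 and 41.7 CPM at high load, all 3 below the controls (log2 fold change -0.46, SE 0.08, adjusted p 0.0946; DESeq2 adjusted p 0.00235). Cdk6, a partner of D cyclins, was at 31.8 ± 1.19 and 47.8 ± 6.85 CPM, and Myc, a growth transcription factor, at 14.5 ± 1.03 and 28.7 ± 8.33 CPM, both without overlap. Exons of Rbl2 overlap those of Aktip on the other strand.

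Inhibitors of cyclin-dependent kinases were measured in the same kidneys, and 7 of 8 had a fold change above 1 (87.5%, background 50.9%). Cdkn1a, which encodes p21, was at 30.0, 29.0 and 24.0 CPM in the controls against 73.9, 53.3 and 75.6 CPM at high load (log2 fold change 1.29, SE 0.16, adjusted p 0.0772; DESeq2 adjusted p 2.39e-08). Cdkn2a, which encodes p16 and ARF, had 3, 0 and 6 counts in controls and 73, 32 and 32 in high-load kidneys. Of 8 inhibitors, 4 had high-load kidneys all above the controls (50%, background 17.1%), the remaining 2 of them being Cdkn2b and Cdkn2d. Cdkn2b was at 2.78 ± 0.565 and 5.93 ± 3.34 CPM, and Cdkn2d at 9.34 ± 0.252 and 11.2 ± 1.03 CPM. The others had overlapping groups: Cdkn1b (61.3 ± 4.41 and 60.7 ± 3.02 CPM), Cdkn1c (22.8 ± 6.76 and 26.8 ± 11.1 CPM), Cdkn2c (17.1 ± 3.57 and 21.7 ± 3.15 CPM) and Cdkn3 (0.809 ± 0.159 and 1.03 ± 0.332 CPM). No inhibitor passed the edgeR threshold and 2 passed that of DESeq2 (Cdkn1a and Cdkn2a), both higher (25%, background 4.51%). At an unadjusted p under 0.05, 3 were higher by edgeR (Cdkn1a, Cdkn2a and Cdkn2b), or 5 with library totals in place of TMM scaling, and 0 lower. The 3 are 37.5% of the list, beside 14% of all genes higher and 10.2% lower at that p.

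Markers of other cell types differed between the same kidneys, and their part in the cell cycle values was not tested. The 3 markers of all leukocytes summed to 103 to 143 CPM in controls, against 176 to 337 CPM in high-load kidneys. At an unadjusted p under 0.05, 3 of 3 were higher, beside 14% of all genes tested. The 8 macrophage and dendritic cell markers summed to 801 to 1066 and 1367 to 2447 CPM (7 of 8 higher at that p), and the 7 T and NK cell markers to 12.8 to 32.0 and 26.0 to 63.2 CPM (3 of 7). The 6 B and plasma cell markers summed to 96.4 to 152 and 239.9 to 1203 CPM (2 of 6), with the highest value in high-load 1. No marker was at 0 in any kidney. Neutrophil markers (3 tested) summed to 6.05 to 21.2 and 7.82 to 29.4 CPM. By library, summed leukocyte markers were 143, 103 and 120 CPM in the controls in order and 337, 198 and 176 CPM at high load. Control 1 was the highest control and control 2 the lowest for leukocyte, macrophage and T cell sums, as for most members. The macrophage markers Adgre1, Csf1r and Cd68 had control 3 as the highest control. For the B and plasma cell sum control 3 was the lowest control, and for the neutrophil sum control 2 was the highest. At high load the leukocyte, macrophage and T cell sums were highest in high-load 1 and lowest in high-load 3. Most members were lowest in high-load 2.

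Markers of tubule, vessel and stroma differed as well, and their part in the results was not tested either. The 7 markers of injured tubule, Havcr1 and Sox9 among them, summed to 591 to 890.4 CPM in controls, against 1852 to 4261 CPM in high-load kidneys. At an unadjusted p under 0.05, 7 of 7 were higher (background 14%). By library the sums were 890.4, 591 and 619 CPM in the controls in order, against 4261, 1852 and 3771 CPM at high load. For this sum control 1 was the highest control, control 2 the lowest, and high-load 2 the lowest of its group, as for most members. Clu made up most of it, at 633, 370 and 419 CPM in the controls in order. Havcr1, Lcn2, Krt8 and Krt18 had control 3 as the lowest control, and Vcam1 was lowest at high load in high-load 3. The 8 proximal tubule markers summed to 12370 to 13987 and 3602 to 10308 CPM, with 2 of 8 lower at that p (background 10.2%). Fibroblast and pericyte markers summed to 222 to 418 and 462 to 716 CPM (3 of 5 higher), endothelial markers to 442 to 578 and 294 to 536 CPM, and podocyte markers to 443 to 539.6 and 199.8 to 518 CPM. Markers of the loop of Henle and distal tubule summed to 7034 to 9408 and 5190.02 to 6946 CPM, and those of the collecting duct to 414 to 902 and 306 to 481 CPM. Red cell precursor markers summed to 187 to 1823 and 74.4 to 299.6 CPM, with the highest value in control 2, the kidney with the lowest level for 31 of 40 members.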

How the data were processed

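RNA was extracted from 6 kidneys with TRIzol, made into TruSeq libraries and sequenced as paired 150 bp reads on a DNBSEQ instrument, per the labels' protocols. The authors deposited raw counts per Ensembl gene, 1 column per kidney. Genome mm10 and the tools featureCounts 2.0.1, HISAT2 2.2.1, SAMtools 1.11, fastp 0.23.2 and edgeR are listed, with no roles, per the submitters' processing notes. Not given in the sources used here were the annotation, strand setting and handling of reads with several matches. GENCODE M21 gave a symbol for 32158 of the 32285 IDs, with positions and exon lengths. An exon length is that of all annotated exons of a gene merged, so levels per kilobase of different genes depend on the annotation.

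Counts were tested with edgeR 4.0.16 in R 4.3.3: genes kept by filterByExpr (minimum count 10), TMM factors, a quasi-likelihood model of group with robust estimation, a two-sided test and Benjamini-Hochberg adjustment over 15955 genes. Standard errors were derived from the F statistic. DESeq2 1.42.0, limma-voom (limma 3.58.1), other scaling and filters, mutation load as a number, the replicate number as a block and leaving out each kidney were alternatives. The tests were checked on simulated counts. An exact permutation test of 3 against 3 cannot give a p below 0.1 and was not used.

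The members and lists were chosen with earlier results of these data known. Values in every kidney are given for all 4 G1/S genes, the 5 S phase and 8 mitosis genes with the smallest p and the gene with the largest p in each role, and 3 genes are named per further list, with all 8 inhibitors. Within a group, pairs of libraries had a chi-square over degrees of freedom of 21.4 to 100.02, so none was counted as a repeat. Each library was taken as 1 animal, as the codes in the labels differ. The values of 1 gene of the further replication list are not reported here.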

Additional observations from a re-analysis of the deposited data

How the results depend on the processing

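The number of members called higher was 0 under 6 of the other fits (DESeq2's size factors, library totals, both filters, limma-voom and no robust estimation) and with mutation load as a number. It was 13 with DESeq2, 2 at an adjusted p under 0.1, and 0 to 2 with 1 kidney left out (2, Rrm2 and Tpx2, without high-load 2). Over all 16283 genes tested without high-load 2, 544 were called higher and 263 lower, beside 3 and 0 in the main fit. Members called lower were 0 in every setting. Members above a fold change of 1 were 37 to 39, and those without overlap 23 to 35 with 1 kidney left out (35 without high-load 2). Leaving out a kidney can raise the count without overlap but hardly lower it, so the low end of that range carries no information. Library totals moved the median log2 fold change of all genes to 0.13, and the S phase and mitosis medians with it to 0.46 and 1.14. With 1 kidney left out, the G2 and mitosis median was 0.80 to 1.48 and its difference from the S phase median 0.55 to 1.12, highest without control 1 in both, and the cause was not tested. The S phase median was 0.25 to 0.38 and the G1/S median 0.32 to 0.55. Counting the G1/S genes with S phase, or leaving Mki67, Top2a, Ccna2, Foxm1 and Stmn1 out of mitosis, gave a difference of 0.66.

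Of 19 named members under 15 alternatives, 267 values kept direction and side of the threshold, 13 were past the threshold only in the alternative (11 of them with DESeq2 and 2 without high-load 2), and 5 changed sign. Those were Ccnd1 without control 1 (-0.013, in a leave-one-out range up to 0.206), Tyms with library totals (0.065), without control 1 (0.036) or without high-load 1 (0.023, in a range from -0.145), and Ube2c without control 2 (-0.041), with adjusted p of 0.77 to 0.98.

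Replicate numbers are shared by title only. Deviations from the group means correlated at 0.12, -0.19 and 0.05 for numbers 1 to 3, so the numbers do not pair the kidneys. With the replicate block 0 members were called (1 gene in all, beside 3), 38 were above 1, 23 did not overlap, and the medians were 0.33 for S phase, 1.08 for G2 and mitosis and 0.41 for G1/S, a difference of 0.76 for mitosis minus S phase. Counts of the other lists with kidneys left out were chosen after seeing the data. Many members have under 100 counts a library, which limits how small a fold can be told from the spread.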
